A study of Homo sapiens with 6 samples.

Results

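The 36 genes described here are the aminoacyl-tRNA synthetases and the scaffold genes AIMP1 and AIMP2, chosen by their symbols from the 61517 genes of the count table. They comprise 19 genes for cytosolic enzymes, 15 for mitochondrial enzymes and 2 for scaffolds, and all 36 were found under their current symbols. Polyadenylated RNA was sequenced from the human monocytic leukaemia line THP-1, differentiated into macrophages and driven into pyroptosis, a lytic inflammatory cell death, with ATP and LPS (lipopolysaccharide, a bacterial cell wall component). The 3 ruxolitinib libraries came from cells also given this JAK1 and JAK2 kinase inhibitor, whose treatment field reads Lukotinib, and the 3 control libraries from cells with no drug. The labels state neither the drug dose nor the treatment times. The count table heads the treated columns RUX1 to RUX3, without the plus sign of the titles RUX+1 to RUX+3, while the control columns carry their titles exactly; every direction below rests on that match. Both groups were stimulated, so no unstimulated level stands beside them, and a single leukaemia line limits the model. The labels do not state that replicates are independent cultures, and p-values therefore reflect only the variation among these samples, possibly technical.

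Aminoacyl-tRNA synthetases join each amino acid to its tRNA and so supply the ribosome. Enzymes of the cytosol and of the mitochondrion are mostly encoded by separate nuclear genes, by convention numbered 1 and 2, although KARS1 and GARS1 serve both compartments. Several cytosolic enzymes sit with AIMP1 and AIMP2 in the multi-synthetase complex. Many cytosolic synthetase genes are targets of ATF4, the transcription factor of the amino acid response, and WARS1, the cytosolic tryptophan enzyme, is the member known for induction by interferon gamma, whose receptor signals through JAK kinases. Ruxolitinib blocks these kinases, which makes WARS1 the gene of interest within the family.

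Letters resembling the sites of these regulators were searched, on both strands, in the 250 bases before each start in RefSeq's promoter table (GRCh38.p14), which held 43 windows for 31 of the 36 genes and none for AARS2, LARS1, VARS1, VARS2 and YARS1. The interferon-type motif (GAAA, any 2 bases, GAAA) was present in 3.02% of all 35116 windows and the GAS-type motif (gamma-activated site) TTCNNNGAA in 6.57%, and the core of the ATF4-type response element, TTGCATCA, in 0.772%. The sites below are those of WARS1, which carries an interferon-type and a GAS-type match before the same start, of its mitochondrial partner WARS2 and of TARS1, which carry GAS-type matches, and of AARS1 and IARS1, which carry the ATF4-type core. Capitals mark the match, and each run is 30 bases, 5′ to 3′, on the gene's strand.
WARS1 interferon-type, chr14:100375383-100375412, minus strand: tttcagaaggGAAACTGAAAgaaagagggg
WARS1 GAS-type, chr14:100375470-100375499, minus strand: gctcaagtgtTTCTGAGAAtctgggtgatt
WARS2 GAS-type, chr1:119140844-119140873, minus strand: gaaattctccTTCCAGGAAggctgagcaga
TARS1 GAS-type, chr5:33440631-33440660, plus strand: cgccgaaaacTTCCCGGAAgtttagaccaa
AARS1 ATF4-type, chr16:70289675-70289704, minus strand: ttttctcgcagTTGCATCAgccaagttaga
IARS1 ATF4-type, chr9:92293698-92293727, minus strand: cccgcattttcagcgcgTTGCATCAcctcc

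The matches of WARS1 lie 46 to 55 and 134 to 142 bases before the downstream of its 2 RefSeq starts and do not overlap each other. The window of the upstream start holds none of the 3 motifs. Gene counts sum over transcripts from both starts, so the starts cannot be separated here. TARS1 has a second GAS-type match before another start, and EARS2 has an interferon-type match. A match describes the letters and is not evidence of binding.

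The libraries held 17757595 to 24533979 counts, and log2 levels correlated at 0.988 to 0.991 for libraries of the same group and at 0.972 to 0.976 across groups. All 10 macrophage and monocyte markers examined were detected, with a summed level of 4246 to 4370 CPM (read counts scaled to one common library size, so that libraries of different depth can be compared) in control and 2775 to 2943 CPM with ruxolitinib. Of the 10, 8 fell, CTSD did not pass, and LYZ rose by 0.20 ± 0.07 on the log2 scale (edgeR adjusted p = 0.0362), while 16.1% of all genes were lower. The LYZ call was not stable. It was lost with library totals alone, with no filter on low counts, by DESeq2 and with the replicate block. It was also lost without control replicate 1, 2 or 3, without ruxolitinib replicate 1 or 2, and on dropping the pair of batch 1, 2 or 3. The 3 T cell markers CD3D, CD3E and CD3G were at 0 in all libraries. The 3 markers each of B, erythroid, fibroblast, endothelial and epithelial cells summed to at most 1.87 CPM in any library. The part of the lower macrophage markers in the results on the synthetases was not tested. In bulk RNA, fewer cells of a type and less RNA per cell cannot be told apart.

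Ruxolitinib moved the synthetase genes little and in both directions. Of the 36 members, 7 were higher (AARS1, EPRS1, QARS1, WARS1, TARS1, WARS2 and TARS2), 4 were lower (NARS1, FARSB, LARS2 and AIMP2) and 25 did not pass an adjusted p of 0.05 by edgeR's quasi-likelihood test, adjusted over all 14051 genes tested. That is 30.6% of the members against 29.7% of all genes tested, of which 13.6% were higher and 16.1% lower, so the members were called about as often as genes at large. Their changes were smaller: the median size was 0.11 on the log2 scale against 0.21 for all genes, and the largest was 0.48. All 36 passed the filter on low counts, with at least 30 counts in every library. The genes tested include some with fewer counts, and the members were not compared with genes of a similar level. The groups did not overlap for 16 of the 36, against 44.2% of all genes.

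Most changes were measured to within narrow bounds. For 33 of the 36 members the 95% interval of the fold change lay within 1.5-fold in either direction. The same held for 7930 of the 14051 genes tested. The exceptions among the members were TARS2 and AIMP2, which passed the test, and VARS2. VARS2 was among the lowest members and had an interval from -0.26 to 0.96 on the log2 scale. The counts moved with the fit: with the batch number of the labels as a replicate block, 4 members were higher (AARS1, EPRS1, QARS1 and TARS2) and 2 lower (LARS2 and AIMP2), where 20.7% of all genes passed. When both batch 1 libraries were left out, 2 were higher and 0 lower, where 13.8% of all genes passed. Leaving out control replicate 1 gave 6 higher and 2 lower, where 22.2% of all genes passed. Control replicate 3 gave 6 and 1 (22.2%), ruxolitinib replicate 1 gave 5 and 0 (20.4%), and both batch 3 libraries gave 5 and 1 (20.6%). Without ruxolitinib replicate 2 or 3 the counts were 6 and 4 (25.2%) or 8 and 3 (26.1%). Without control replicate 2 they were 7 and 5 (29.9%), and without both batch 2 libraries 8 and 5 (35.6%).

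**Figure D1:**
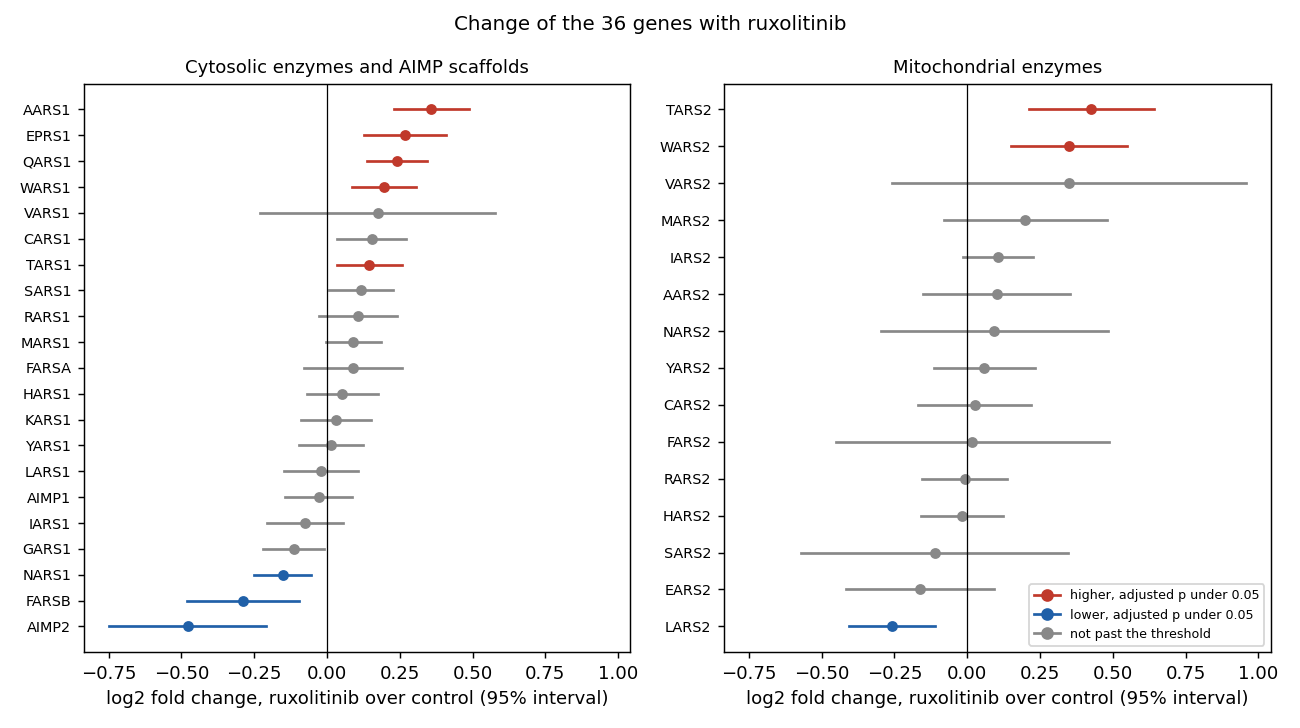
Log2 fold change of each of the 36 genes, ruxolitinib over control, with its 95% interval, for cytosolic enzymes and scaffolds (left) and mitochondrial enzymes (right). Red and blue points passed an adjusted p of 0.05, and the fitted values run from -0.48 for AIMP2 to 0.43 for TARS2.

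WARS1 (chromosome 14, 100333788 to 100376805, minus strand, GRCh38) did not fall with the JAK inhibitor. Its level was 126, 118 and 131 CPM in control replicates 1 to 3 and 141, 145 and 143 CPM in ruxolitinib replicates 1 to 3. Every ruxolitinib library was above every control library. The log2 fold change was 0.20 ± 0.05 (SE, n = 3 per group, edgeR adjusted p = 0.0113), a 1.15-fold rise with a 95% interval of 0.09 to 0.31 on the log2 scale. The direction was the same under all 17 alternatives, but the call was lost with the batch as a replicate block (0.20, adjusted p = 0.0532) and when both batch 1 libraries were left out (0.21, adjusted p = 0.138). Exons of WARS1 share bases with WDR25 on the opposite strand, and without a stated strand setting the reads there cannot be assigned. WDR25 averaged 1.94 ± 0.07 CPM in control libraries and 2.22 ± 0.45 CPM with ruxolitinib (SD, n = 3 each).

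Other interferon gamma targets mostly fell in the same libraries. Of the 22 genes tested on that list, 17 fell, 3 rose and 2 did not pass, which is 90.9% called against 29.7% of all genes. The median log2 fold change was -0.64 against -0.01 for all genes. UBE2L6, the conjugating enzyme for ISG15, read 112, 106 and 108 CPM in control libraries and 17.0, 18.1 and 17.7 CPM with ruxolitinib, and fell by 2.63 ± 0.06 on the log2 scale. The guanylate-binding protein genes GBP1 and GBP5 fell by 3.18 ± 0.10 and 5.61 ± 0.18, the aminopeptidase gene LAP3 fell by 2.01 ± 0.06, and IRF1, an interferon-induced transcription factor, fell by 0.42 ± 0.06. WARS1 thus rose by 0.20 where UBE2L6 fell by 2.63 on the log2 scale.

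The 3 listed targets that rose with WARS1 were IDO1, CXCL9 and ICAM1. IDO1, which degrades the tryptophan that WARS1 uses, read 26.1, 25.2 and 23.2 CPM in control and 55.5, 55.5 and 52.2 CPM with ruxolitinib, a 2.19-fold rise. ICAM1, an adhesion receptor also driven by NF-kB, had a log2 fold change of 0.35. CXCL9, a chemokine, was low, averaging 0.27 ± 0.17 CPM in control libraries and 1.28 ± 0.37 CPM with ruxolitinib (SD, n = 3 each). WARS1 had a smaller fitted change than any of the 3. Whether they share a cause with WARS1 was not tested.

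**Figure D2:**
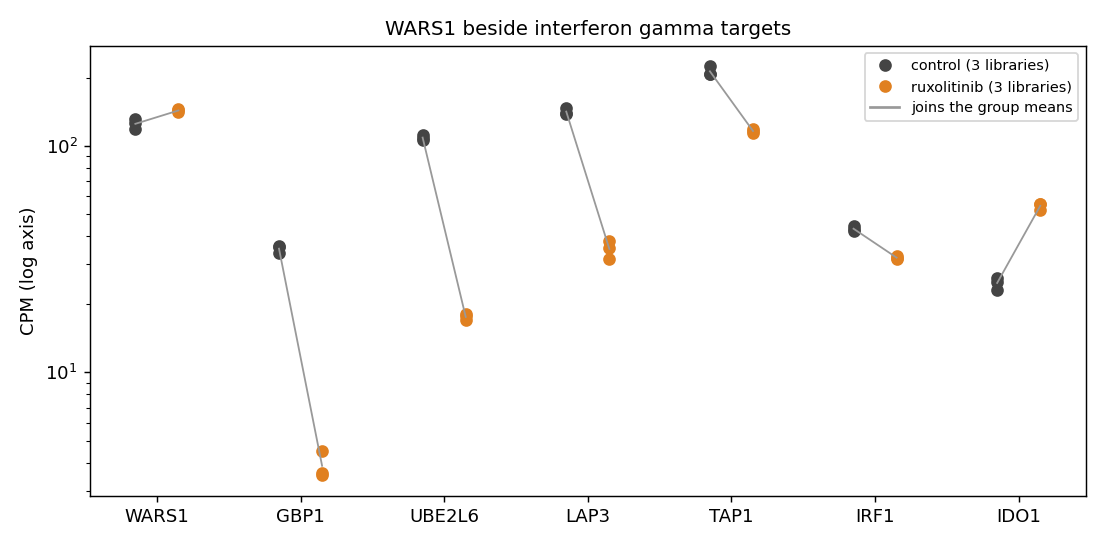
Level in each library (CPM, log axis) of WARS1 and 6 other interferon gamma targets, with a line between group means. WARS1 lies between 118 and 145 CPM in all 6 libraries, while UBE2L6 drops from 106 to 112 CPM in control to 17.0 to 18.1 CPM with ruxolitinib and IDO1 rises.

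Among cytosolic enzymes, 5 rose, 2 fell and 12 did not pass (36.8% called against 29.7% of all genes), with a median log2 fold change of 0.09. AARS1 (chromosome 16, 70252295 to 70289543), which charges alanine tRNA, had the largest rise of the group. It read 36, 34.1 and 37.2 CPM in control and 45.7, 47.1 and 44.7 CPM with ruxolitinib. The groups were well apart, with a log2 fold change of 0.36 ± 0.06 (SE, adjusted p = 0.000681), and the call held under all 17 alternatives. This was the only member past the threshold in each of them. IARS1, which also carries the ATF4-type core before its start, had -0.07 ± 0.06 (adjusted p = 0.391).

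EPRS1 and QARS1 are the other cytosolic enzymes with firmer rises, and both belong to the multi-synthetase complex. EPRS1 (chromosome 1, 219968601 to 220046658) joins both glutamate and proline to their tRNAs and is known from the GAIT complex, which represses inflammatory transcripts after interferon gamma. It read 113, 103 and 118 CPM in control and 133, 143 and 125 CPM with ruxolitinib, with no overlap. The log2 fold change was 0.27 ± 0.06 (SE, adjusted p = 0.00822). QARS1 (chromosome 3, 49095932 to 49105135), the glutamine enzyme, read 73.8, 75.7 and 74.6 CPM in control and 89.9, 85.6 and 89.2 CPM with ruxolitinib. Its replicates were close together, and the log2 fold change was 0.24 ± 0.05 (SE, adjusted p = 0.00236). Among the 17 alternatives, both calls were lost only when both batch 1 libraries were left out (adjusted p = 0.0998 for EPRS1 and 0.106 for QARS1).

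TARS1 and NARS1, which rank 1 and 2 per length on the mean over all 6 libraries, had the smallest fitted changes among those that passed. TARS1 (chromosome 5, 33440696 to 33469539), the threonine enzyme, read 381, 347 and 372 CPM in control and 406, 423 and 388 CPM with ruxolitinib. The highest control and the lowest ruxolitinib library were close, and the log2 fold change was 0.15 ± 0.05 (SE, adjusted p = 0.0472). NARS1 (chromosome 18, 57600656 to 57622213), the asparagine enzyme, read 179, 174 and 180 CPM in control and 163, 163 and 154 CPM with ruxolitinib. All ruxolitinib libraries were lower, with a log2 fold change of -0.15 ± 0.05 (SE, adjusted p = 0.0246). Neither call was stable: that of TARS1 held under 4 of the 17 alternatives and that of NARS1 under 7. TARS1 was lost with the block (adjusted p = 0.149), with median-ratio scaling (0.0627) or library totals alone (0.0832), by DESeq2 and by limma-voom (0.0503 each), without control replicate 1 (0.0704), 2 (0.164) or 3 (0.0945), without ruxolitinib replicate 1 (0.140) or 2 (0.111), and on dropping the pair of batch 1 (0.218), 2 (0.179) or 3 (0.0659). NARS1 was lost with the block (0.107), with median-ratio (0.0686) or upper-quartile scaling (0.0761), by DESeq2 (0.0794), without control replicate 1 (0.138) or 3 (0.156), without ruxolitinib replicate 1 (0.0765) or 3 (0.0828), and on dropping the pair of batch 1 (0.215) or 3 (0.193).

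The phenylalanine enzyme of the cytosol is built from the products of FARSA and FARSB, and the 2 genes did not give the same call. FARSB (chromosome 2, 222570536 to 222656337), the beta subunit, read 18.7, 16.3 and 17.1 CPM in control and 13.4, 14.7 and 14.4 CPM with ruxolitinib, with no overlap. Its log2 fold change was -0.29 ± 0.09 (SE, adjusted p = 0.0271). FARSA, the alpha subunit, read 22.5 to 25.8 CPM in control and 24.4 to 27.0 CPM with ruxolitinib, so its groups overlapped (log2 fold change 0.09 ± 0.08, adjusted p = 0.427). FARSB did not pass with the block (adjusted p = 0.0869), by DESeq2 (0.108), without control replicate 1 (0.139) or 3 (0.0837), without ruxolitinib replicate 1 (0.123), and on dropping the pair of batch 1 (0.337) or 3 (0.09999). The difference between the subunits was not tested.

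The other 12 cytosolic enzymes had log2 fold changes from -0.11 for GARS1, the glycine enzyme, to 0.17 for VARS1, the valine enzyme, and all 19 intervals of the cytosolic group lay within 1.5-fold. GARS1 passed with library totals alone (adjusted p = 0.0230), without control replicate 2 (0.0469) and on dropping the batch 2 pair (0.0327). CARS1, the cysteine enzyme, passed with upper-quartile scaling (0.0228) and without ruxolitinib replicate 3 (0.0321), as did MARS1 (0.0479) and SARS1 (0.0386), for methionine and serine, with upper-quartile scaling. VARS1 varied widely: control libraries read 11.2, 17.1 and 12.6 CPM and ruxolitinib libraries 16.8, 12.6 and 17.0 CPM. In each group the second library was the odd one, high in control and low with ruxolitinib. VARS1 passed without control replicate 2 (adjusted p = 0.0448) and on dropping the batch 2 pair (0.000185).

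Within the multi-synthetase complex, 2 of the 9 genes examined rose (EPRS1 and QARS1), 1 fell (AIMP2) and 6 did not pass. That is 33.3% called, against 29.7% of all genes. The scaffolds bind the enzymes together, and AIMP1 is also the precursor of a secreted cytokine-like fragment. AIMP2 (chromosome 7, 6009245 to 6023834) read 8.79, 8.53 and 8.25 CPM in control and 5.30, 6.32 and 6.71 CPM with ruxolitinib. It had the largest fall of all members, with a log2 fold change of -0.48 ± 0.12 (SE, adjusted p = 0.0121), a fold of 0.718. AIMP1 (chromosome 4, 106315544 to 106349226) read 58.9, 57.1 and 57.3 CPM in control and 57.7, 54.1 and 58.0 CPM with ruxolitinib, an overlap of the groups (log2 fold change -0.03 ± 0.05, adjusted p = 0.729). The AIMP2 call was lost without ruxolitinib replicate 1 (adjusted p = 0.0685) and on dropping the batch 1 pair (0.177). Exons of AIMP2 share 532 bases with EIF2AK1 on the opposite strand, which averaged 93.8 ± 6.88 CPM in control libraries and 88.5 ± 2.30 CPM with ruxolitinib (SD, n = 3 each; log2 fold change -0.08, adjusted p = 0.317), and how reads of the shared bases were counted is not given in the sources used here.

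**Figure D3:**
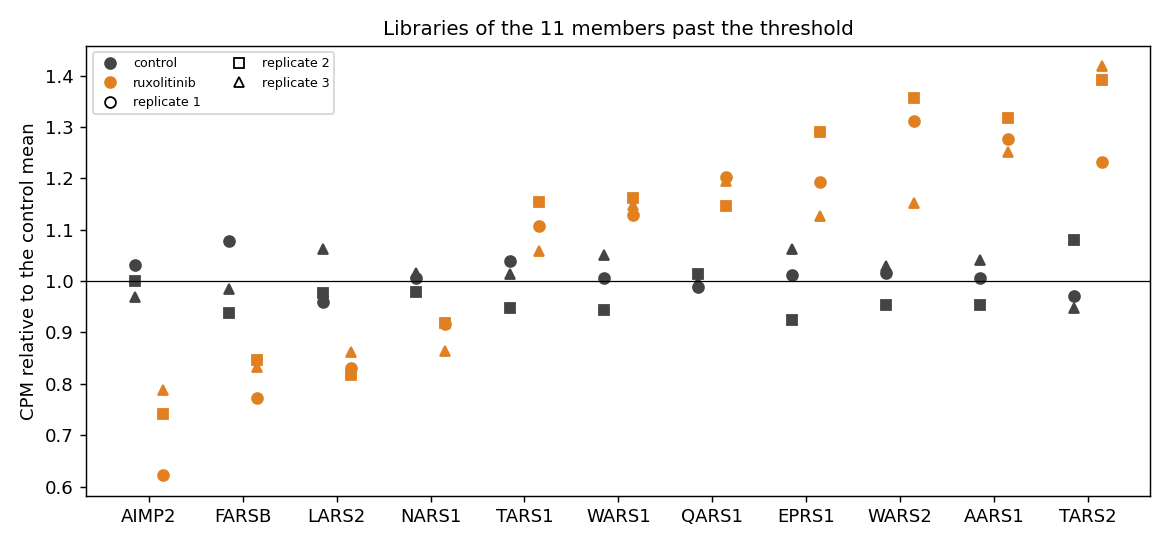
Level of the 11 members past the threshold in each library, relative to the gene's control mean, with grey for control, orange for ruxolitinib and a marker shape per replicate number. The groups do not overlap for any of the 11, and only AIMP2 has a library below 0.7 of its control mean.

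Among mitochondrial enzymes, 2 rose, 1 fell and 12 did not pass (20% called against 29.7% of all genes), with a median log2 fold change of 0.06. TARS2 (chromosome 1, 150487364 to 150507609), the threonine enzyme, read 10.8, 12.0 and 10.6 CPM in control and 13.7, 15.5 and 15.8 CPM with ruxolitinib. It had the largest rise of all members, with a log2 fold change of 0.43 ± 0.10 (SE, adjusted p = 0.00636), lost only on dropping the batch 3 pair (0.0849). WARS2 (chromosome 1, 119031216 to 119140671), the tryptophan enzyme, read 13.5, 12.6 and 13.6 CPM in control and 17.4, 17.95 and 15.3 CPM with ruxolitinib. Its groups did not overlap, with a log2 fold change of 0.35 ± 0.09 (SE, adjusted p = 0.0126). WARS2 did not pass with the block (0.0501), without ruxolitinib replicate 1 (0.0614) and on dropping the batch 1 pair (0.140). Exons of WARS2 share 180 bases with WARS2-AS1 on the opposite strand. WARS2-AS1 averaged 17.7 ± 1.69 CPM in control libraries and 16.8 ± 0.99 CPM with ruxolitinib (SD, n = 3 each), a level near that of WARS2. How reads of the shared bases were counted is not given in the sources used here.

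LARS2 (chromosome 3, 45388506 to 45549421), the leucine enzyme of the mitochondrion, was the member of this group that fell. It read 28.7, 29.2 and 31.8 CPM in control and 24.8, 24.4 and 25.8 CPM with ruxolitinib. All ruxolitinib libraries were lower, with a log2 fold change of -0.26 ± 0.07 (SE, adjusted p = 0.0128). The call was lost by DESeq2 (0.0592), without control replicate 3 (0.0926), without ruxolitinib replicate 1 (0.0591) and on dropping the pair of batch 1 (0.101) or 3 (0.0802). The 12 enzymes that did not pass had log2 fold changes from -0.16 for EARS2 to 0.35 for VARS2, and VARS2 passed on dropping the batch 2 pair (0.0204).

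Levels per length were compared as FPKM, the CPM per kilobase of merged exons in GENCODE 29. Merged exons cover all annotated transcripts of a gene and can be longer than the transcripts present, so ranks and ratios between genes depend on these lengths. TARS1 was the highest of all members, at 64.1 ± 3.06 FPKM (SD, n = 3) in control against 71.0 ± 3.08 FPKM with ruxolitinib, and did not overlap the next gene in any library. NARS1 (43.5 ± 0.82 and 39.1 ± 1.33 FPKM) and SARS1 (38.7 ± 1.82 and 42.0 ± 1.56) followed, and their ranges overlapped, with the order of the group means opposite in the 2 conditions. The mitochondrial isoleucine enzyme gene IARS2 ranked 4 (32.6 ± 1.42 and 35.1 ± 2.05 FPKM), and WARS1 ranked 8 (19.7 ± 1.04 and 22.5 ± 0.32 FPKM), with a range overlapping that of EPRS1. The lowest were SARS2, FARS2 and VARS2, with control means of 0.701, 0.435 and 0.294 FPKM. On the same strand, SARS2 shares 1492 of its 3231 exon bases with AC011455.2, and VARS2 shares 1858 of 8448 with GTF2H4. How reads of these bases were counted is not given in the sources used here, while the full lengths entered the FPKM. FARS2 and VARS2 had overlapping ranges.

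Cytosolic enzymes were mostly expressed above their mitochondrial partners. The median over members was 15.9 ± 0.21 FPKM for cytosolic and 2.29 ± 0.27 FPKM for mitochondrial enzymes in control, and 17.7 ± 0.72 and 2.46 ± 0.18 FPKM with ruxolitinib (SD, n = 3 each). In 14 of the 15 amino acids with both enzymes, the cytosolic gene was higher per length in all 6 libraries, for phenylalanine with FARSA as the cytosolic gene. Isoleucine was the exception, with IARS1 at 0.22 to 0.28 of the IARS2 level. The tryptophan pair had 4.89 to 5.83 times as much WARS1 as WARS2, and the tyrosine pair was nearest to equal, at 1.04 to 1.253. The tyrosine value rests on merged lengths of 8212 bases for YARS1 and 2152 for YARS2. Without length, the log2 ratio of their counts was 1.99 to 2.26. Reads that HARS1 and HARS2 could share bear on the histidine ratio of 1.34 to 1.65, since these neighbours on chromosome 5 are read in opposite directions and their exons overlap by 437 bases.

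The balance between the compartments was compared as the log2 ratio of the cytosolic to the mitochondrial count within each library, which does not depend on library scaling. Over the 15 pairs, the groups did not overlap for 3: glutamate, leucine and isoleucine. For levels of single genes, which are not ratios, that share was 44.2% of all genes. The EPRS1 to EARS2 ratio was 4.02, 3.71 and 3.91 in control and 4.23, 4.39 and 4.28 with ruxolitinib, a difference of 0.42. The LARS1 to LARS2 ratio differed by 0.24 and the IARS1 to IARS2 ratio by -0.18. Each of the 3 gave p = 0.1 in an exact permutation test (two-sided), with an adjusted p = 0.45 over the 15 pairs. As 0.1 is the lower limit for 3 against 3 libraries, no pair could pass 0.05. The test therefore cannot decide whether the balance shifted. For tryptophan the difference was -0.15 (exact permutation p = 0.3), with overlapping groups.

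Threonine and tryptophan were the pairs in which both enzymes passed the threshold, each time both higher. For the other 13 amino acids at most 1 of the 2 enzymes passed. Neither pair kept both calls with the replicate block, where TARS1 (edgeR adjusted p = 0.149), WARS1 (0.0532) and WARS2 (0.0501) did not pass. The TARS1 call held under 4 of the 17 alternatives. Of all cytosolic enzymes 36.8% were called, and of all mitochondrial enzymes 20%. Whether 2 such pairs are more than these shares would give was not tested. The plot of both enzymes of each amino acid shows threonine and tryptophan in the upper right, beside valine, whose enzymes had similar fitted values but wide errors and did not pass, alanine and glutamate to the right with the cytosolic enzyme alone past the threshold, and leucine below.

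**Figure D4:**
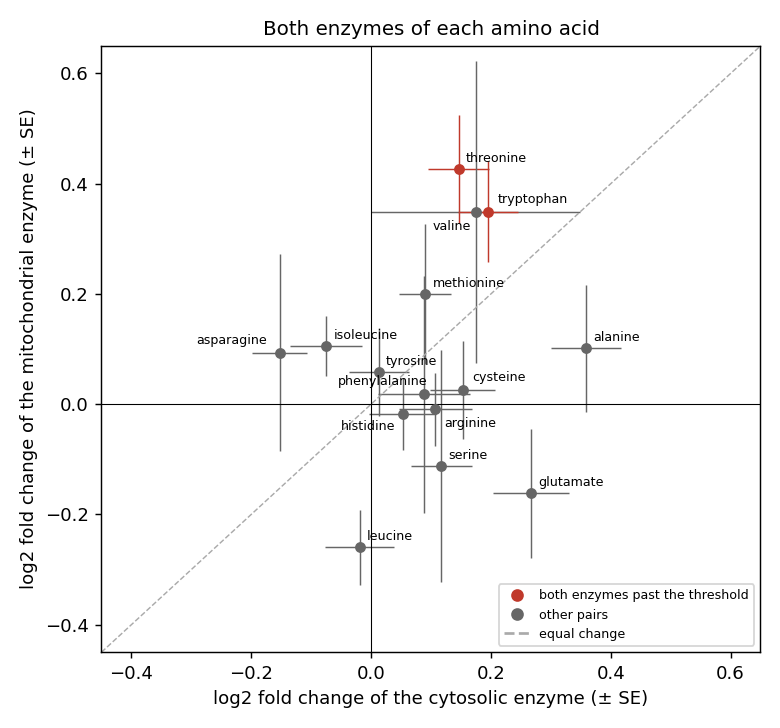
Log2 fold change of the cytosolic (horizontal) and mitochondrial (vertical) enzyme for 15 amino acids, each ± SE, with FARSA as the cytosolic gene for phenylalanine. Red points are the 2 pairs in which both enzymes passed, threonine (0.15 and 0.43) and tryptophan (0.20 and 0.35). Neither pair had both enzymes past the threshold with the replicate block.

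By catalytic class, the unrelated folds into which synthetases are sorted, 3 of 18 class I enzymes rose and 1 fell, and 3 of 15 class II enzymes rose and 2 fell, with EPRS1 counted in neither because it holds both. The called shares were 22.2% for class I and 33.3% for class II, against 29.7% of all genes. The class medians were 0.10 and 0.05 on the log2 scale. Enzymes of the complex and cytosolic enzymes outside it had medians of 0.09 and 0.10. Both classes held members that rose and members that fell, and no difference between any of these groupings was tested.

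The amino acid response, which senses uncharged tRNA and acts through ATF4, was examined beside the synthetases. Of its 30 genes, 6 rose, 3 fell and 21 did not pass, which is 30% against 29.7% of all genes, with a median log2 fold change of 0.18. With upper-quartile scaling 10 rose and 1 fell, where 2318 of all genes were higher and 1957 lower. With library totals alone 4 rose and 3 fell, where 1578 of all genes were higher and 2621 lower. With the replicate block 4 rose and 1 fell, where 20.7% of all genes passed. Leaving out control replicate 1 or 3 also gave 4 and 1, where 22.2% of all genes passed each time. Ruxolitinib replicate 2 gave 5 and 1 (25.2%), and ruxolitinib replicate 3 gave 6 and 1 (26.1%). Control replicate 2 gave 10 and 1 (29.9%). The pair of batch 1, 2 or 3 gave 2, 11 or 2 higher and 1 lower. On dropping these pairs, 13.8%, 35.6% and 20.6% of all genes passed. VLDLR, a lipoprotein receptor, rose from 23.9 ± 0.97 to 43.5 ± 1.46 CPM (SD, n = 3 each), and DDIT4, an inhibitor of mTORC1, from 164 ± 4.52 to 230 ± 4.37 CPM. ATF3, a stress transcription factor, fell from 66.0 ± 0.99 to 46.1 ± 0.87 CPM, and PPP1R15A, which restores translation, rose by 0.34 ± 0.07 on the log2 scale (adjusted p = 0.00742).

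The central genes of that response did not pass. ATF4 read 306, 314 and 301 CPM in control and 331, 327 and 332 CPM with ruxolitinib, groups that did not overlap (log2 fold change 0.11 ± 0.04, adjusted p = 0.0730). DDIT3, the factor CHOP, had 0.03 ± 0.06 (adjusted p = 0.776). ASNS, which makes asparagine and is a standard ATF4 target, had 0.25 ± 0.16 (adjusted p = 0.279), with means of 3.81 ± 0.61 and 4.53 ± 0.26 CPM. DDIT3 exons overlap those of MARS1 on the opposite strand.

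Amino acid transporters supply the substrates. Among the 21 tested, 2 rose and 7 fell, where 13.6% of all genes were higher and 16.1% lower. Without control replicate 2, 4 rose and 7 fell, where 29.9% of all genes passed, and without the batch 2 pair 6 and 6, where 35.6% passed. SLC7A7, a cationic amino acid transporter subunit, fell from 100 ± 0.68 to 59.2 ± 2.49 CPM, SLC36A1, a lysosomal and plasma membrane proton-coupled transporter, by 0.77 ± 0.06 on the log2 scale, and the glutamate transporter gene SLC1A3 by 0.49 ± 0.04. The glutamine-type carriers SLC38A2 and SLC38A1 rose, SLC38A2 from 600 ± 15.6 to 799 ± 3.84 CPM. No test compared these counts with those of the synthetases.

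Among other genes of translation and tRNA maturation, the called share differed from list to list, beside 29.7% of all genes. Of 17 mitochondrial translation factors, 1 rose, the elongation factor gene TUFM, from 52.2 ± 0.79 to 68.4 ± 1.07 CPM, and 16 did not pass. Leaving out control replicate 2 or the batch 2 pair gave 2 higher and 1 lower, where 29.9% and 35.6% of all genes passed. Leaving out ruxolitinib replicate 3 gave 2 and 0 (26.1%). Of 19 genes for mitochondrial tRNA processing and modification, 5 rose and 3 fell (42.1% called). With the replicate block or by DESeq2, 2 rose and 2 fell, where 20.7% and 23.4% of all genes passed. With library totals alone 3 rose and 3 fell, where 1578 of all genes were higher and 2621 lower. Leaving out any single library gave 1 to 4 higher and 2 lower, where 20.4% to 29.9% of all genes passed. Dropping the pair of batch 1, 2 or 3 gave 0, 3 or 1 higher and 2 lower, where 13.8%, 35.6% or 20.6% of all genes passed. PNPT1, an RNA-degrading enzyme that is also interferon-induced, fell from 128 ± 5.59 to 24.3 ± 1.12 CPM. The tRNA-modifying enzyme gene QTRT2 fell by 0.36 ± 0.07 on the log2 scale, while YRDC and MTO1 had 0.22 ± 0.06 each. Of 22 cytosolic tRNA modification and proofreading genes, FTSJ1 rose (0.24 ± 0.07), ELP3 fell (-0.27 ± 0.07) and 20 did not pass. FTSJ1 was not called with the replicate block, where 0 rose and 1 fell, nor by DESeq2, nor without control replicate 1 or ruxolitinib replicate 2 or 3. ELP3 was not called without control replicate 3, and neither was on dropping the batch 1 or batch 3 pair.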

How the data were processed

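The authors deposited 1 table of raw read counts for 61517 genes and 6 libraries, and per the submitters' processing notes the build was hg38. Aligner, counting program, annotation release and strand setting: not given in the sources used here. Positions and merged exon lengths came from GENCODE 29 on GRCh38, in which 58340 identifiers were found.

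The deposited counts were tested with edgeR 4.0.16 in R 4.3.3 (glmQLFit and glmQLFTest, robust), with TMM factors, filterByExpr (minimum count 10, minimum total 15) and Benjamini-Hochberg adjustment over 14051 genes. CPM were scaled by TMM. SE came from the coefficient and its F statistic. Ratios of counts had 0.5 added to each gene. The procedure was tested on simulated data. Alternatives were other scalings and filters, DESeq2 1.42.0, limma-voom (limma 3.58.1), a replicate block, and leaving out each library or each same-numbered pair. The members and lists were chosen with earlier results of these data known. Members named in full were WARS1, the scaffolds and up to 5 rises and 5 falls per compartment among those past the threshold. From other lists up to 4 genes with the smallest adjusted p were named, plus fixed key genes. One gene that this rule names is not reported here. VARS1, FARSA, IARS1 and other members below the threshold, and CXCL9, ICAM1 and SLC38A1, were named once their values were known.

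The labels give each control and ruxolitinib library a shared batch number, which pairs them on that ground. Over genes, the deviations from the group means of libraries sharing a number correlated at -0.02, -0.19 and -0.10. These values show no pairing of their own, and the label is its only ground.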

Additional observations from a re-analysis of the deposited data

How the results depend on the processing

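Over 17 alternatives, 557 of the 612 fitted values of members kept their call, 45 lost it, 10 gained one and 0 turned a called direction, and 14 members below the threshold changed sign without passing. With the replicate block, the members higher numbered 4 and those lower 2, and WARS1 had 0.197 (adjusted p = 0.0532). By DESeq2, 6 members were higher and 1 lower, where 23.4% of all genes passed. With upper-quartile scaling 10 members were higher and 3 lower, and over all genes 2318 were higher and 1957 lower, against 1908 and 2267 with TMM. With single libraries or same-numbered pairs left out, the members higher numbered 2 to 8 and those lower 0 to 5. Of all genes, 13.8% to 35.6% passed in these fits, and WARS1 ran from 0.146 to 0.247 (adjusted p = 0.0136 to 0.138). The median log2 fold change ran from 0.055 to 0.106 for cytosolic enzymes and from -0.00083 to 0.084 for mitochondrial enzymes, and the pairs of enzymes whose groups did not overlap numbered 3 to 6. The cause of these changes was not tested. Fits with libraries left out also hold fewer libraries, and the part of this was not tested either. Depth limits the lowest members most: VARS2, FARS2 and SARS2 had 30 to 80 counts per library.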
